A study of Mus musculus with 6 samples.

Results

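The data describe 7 chemoattractant receptor genes in mouse invariant natural killer T (iNKT) cells: Cxcr3, Cxcr4, Cxcr6, Ccr2, Ccr9, Ccr10 and Gpr183. They were taken by symbol from the 27998 genes listed in every library, and all 7 were found. iNKT cells are T cells with a nearly invariant T cell receptor that recognises lipids on CD1d. They were profiled by droplet single-cell RNA sequencing from the liver, the spleen and lymph nodes, with 2 libraries for each. Per the labels, the liver, spleen and lymph node groups were alike in strain (C57BL/6), genotype (WT), treatment (none given) and age (5 weeks). Before sorting on TCR-β and CD1d tetramer staining, cells bearing CD8 or B220 had been removed from all of them. Sex and the number of mice behind a library are not given, and the p-values therefore do not measure the spread between mice. They rest on 2 libraries for each organ and on a spread estimated partly, or almost wholly, from all genes together. The question addressed is how far the receptors that guide these cells differ between the organs in which the cells are found.

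Chemokine receptors are G protein-coupled receptors that steer cells along gradients of chemokines held on endothelium and stroma. CXCR3 binds the interferon-induced chemokines CXCL9 and CXCL10, CXCR4 binds CXCL12, and CXCR6 binds CXCL16, which is displayed on liver sinusoidal endothelium and is known to retain iNKT cells there. CCR2 binds CCL2 and related chemokines of inflamed tissue, CCR9 binds CCL25 of the small intestine and thymus, and CCR10 binds CCL27 of the skin and CCL28 of mucosal epithelium. GPR183, also called EBI2, is not a chemokine receptor but a receptor for oxysterols that positions lymphocytes within lymphoid organs. iNKT1, iNKT2 and iNKT17 cells are the functional subsets of the lineage, which make mainly interferon gamma, interleukin 4 and interleukin 17.

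Of 16587 barcodes, 16532 were kept, 2638 to 2861 in each library. The libraries held 4768016 to 11086603 unique molecular identifiers (UMIs), with a median of 1470 to 3592 per kept cell, and the liver libraries held the most. Library pairs shared 6 to 20 barcodes. The T cell genes Cd3e and Cd3g and the iNKT cell factor Zbtb16 were present in every library (596 to 1164, 1682 to 2584 and 74.3 to 96.1 CPM, UMIs per 1000000 scaled as described below for the receptors), whereas T cell receptor segments were not among the listed genes. Markers of B cells, CD8 T cells and hepatocytes summed to at most 11.8, 4.6 and 2.9 UMIs per 1000000 unscaled UMIs of all genes in a library. On the same unscaled measure those of myeloid cells summed to 169.5 to 289, and those of erythroid cells to 332 and 536 in the liver libraries and at most 1 UMI in each of the others, and their part in the comparisons with liver was not tested. Those of liver endothelium summed to 45.6 and 50.4 in the lymph node libraries and 16.2 to 30.2 in the others, and their part was not tested either. Both lymph node libraries held no Xist UMI and 1362 and 1579 UMIs of Y-chromosome genes, while the liver and spleen libraries held 5401 to 10404 Xist UMIs and no Y-gene UMI. Organ and sex-chromosome RNA therefore cannot be told apart in any comparison with lymph node, and Cxcr3 is itself X-linked. Immediate early genes such as Fos and Jun also moved with the lymph node, at 5029 and 5687 UMIs per 1000000 unscaled against 550 to 1049 in the other 4 libraries, and their part in the results was not tested.

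The genes lie at 5 places in the genome (GRCm38). Cxcr3 (ENSMUSG00000050232) lies at chrX:101731535-101734269, Cxcr4 (ENSMUSG00000045382) at chr1:128588199-128592293 and Ccr10 (ENSMUSG00000044052) at chr11:101172997-101175443, all on the minus strand. Gpr183 (ENSMUSG00000051212) lies at chr14:121952551-121965195 on the minus strand, within the oppositely oriented Ubac2. Cxcr6 (ENSMUSG00000048521) at chr9:123806475-123811760, Ccr2 (ENSMUSG00000049103) at chr9:124101950-124113557 and Ccr9 (ENSMUSG00000029530) at chr9:123678439-123784330 belong to the receptor cluster of chromosome 9 and lie on the plus strand. Cxcr6 lies within Fyco1 and Ccr10 overlaps Cntnap1, each on the opposite strand, and Ccr9 overlaps Lztfl1, Slc6a20a and other transcripts. Whether strand was used in counting is not given in the sources used here, and whether reads of these partners were counted for the receptors was not tested. Whether reads shared with related receptor genes were split in counting was not tested.

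RefSeq promoter sequence (GRCm38.p6) was at hand for 6 of the 7 genes, all but Ccr10. The 250 bases upstream of the start are shown for Cxcr3, Ccr9 and Gpr183, whose levels set lymph node apart from the other organs, and for Cxcr6, which was detected in most cells. Capitals mark matches, on either strand, to TCACAC (part of the T-box motif), ACCACA (RUNX), TGANTCA (AP-1) or CACCC (Krüppel-like factors), which do not overlap one another here. The windows are chrX:101734148-101734397 (minus strand) for Cxcr3, chr9:123806227-123806476 (plus) for Cxcr6, chr9:123766961-123767210 (plus) for Ccr9, which lies inside the longer gene span given above, and chr14:121965194-121965443 (minus) for Gpr183.
Cxcr3: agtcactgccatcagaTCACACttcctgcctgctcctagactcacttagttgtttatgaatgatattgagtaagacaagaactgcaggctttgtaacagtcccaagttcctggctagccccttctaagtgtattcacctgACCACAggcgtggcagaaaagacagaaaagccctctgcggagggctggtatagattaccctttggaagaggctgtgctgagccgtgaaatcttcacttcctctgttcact
Cxcr6: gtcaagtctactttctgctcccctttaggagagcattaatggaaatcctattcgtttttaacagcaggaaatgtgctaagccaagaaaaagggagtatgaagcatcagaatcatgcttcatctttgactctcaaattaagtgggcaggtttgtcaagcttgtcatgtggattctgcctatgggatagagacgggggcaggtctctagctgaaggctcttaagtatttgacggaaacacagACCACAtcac
Ccr9: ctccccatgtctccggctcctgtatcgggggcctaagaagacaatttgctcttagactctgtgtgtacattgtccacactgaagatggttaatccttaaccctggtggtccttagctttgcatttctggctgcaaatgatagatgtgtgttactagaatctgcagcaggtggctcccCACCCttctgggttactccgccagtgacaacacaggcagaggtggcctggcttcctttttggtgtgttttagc
Gpr183: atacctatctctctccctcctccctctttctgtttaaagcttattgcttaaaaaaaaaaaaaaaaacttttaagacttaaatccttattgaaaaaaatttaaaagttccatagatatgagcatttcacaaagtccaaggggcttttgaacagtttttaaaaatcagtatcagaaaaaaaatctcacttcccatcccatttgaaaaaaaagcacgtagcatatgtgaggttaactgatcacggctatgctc

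The Cxcr3 window held TCACAC 234 bases and ACCACA 110 bases upstream of the start, and the Cxcr6 window held ACCACA 10 bases upstream. The Ccr9 window held CACCC 73 bases upstream, and that of Gpr183, with a GC content of 32.0% against a median of 52.4% over all promoters, held none of the 4. Among the 6 receptor promoters the T-box letters occurred in 1, RUNX in 2, AP-1 in 0 and CACCC in 2. Of 32851 promoter windows of the same length, 12.3%, 14.0%, 6.7% and 52.0% held them, so that these matches describe the sequences and single out no gene.

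The levels of the receptors fell into 3 kinds of pattern over the organs. Cxcr3 and Ccr9 were high in liver and spleen and low in lymph node, Ccr10 and Gpr183 rose from liver through spleen to lymph node, and Cxcr4, Cxcr6 and Ccr2 differed by less. Levels are UMIs of a gene summed over the cells of a library and given as CPM, without ribosomal, rRNA and haemoglobin genes and after scaling by the trimmed mean of M values (TMM), and differences are log2 fold changes ± SE, the first-named organ over the other. In such sums, fewer expressing cells and less RNA per cell cannot be told apart.

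**Figure D1:**
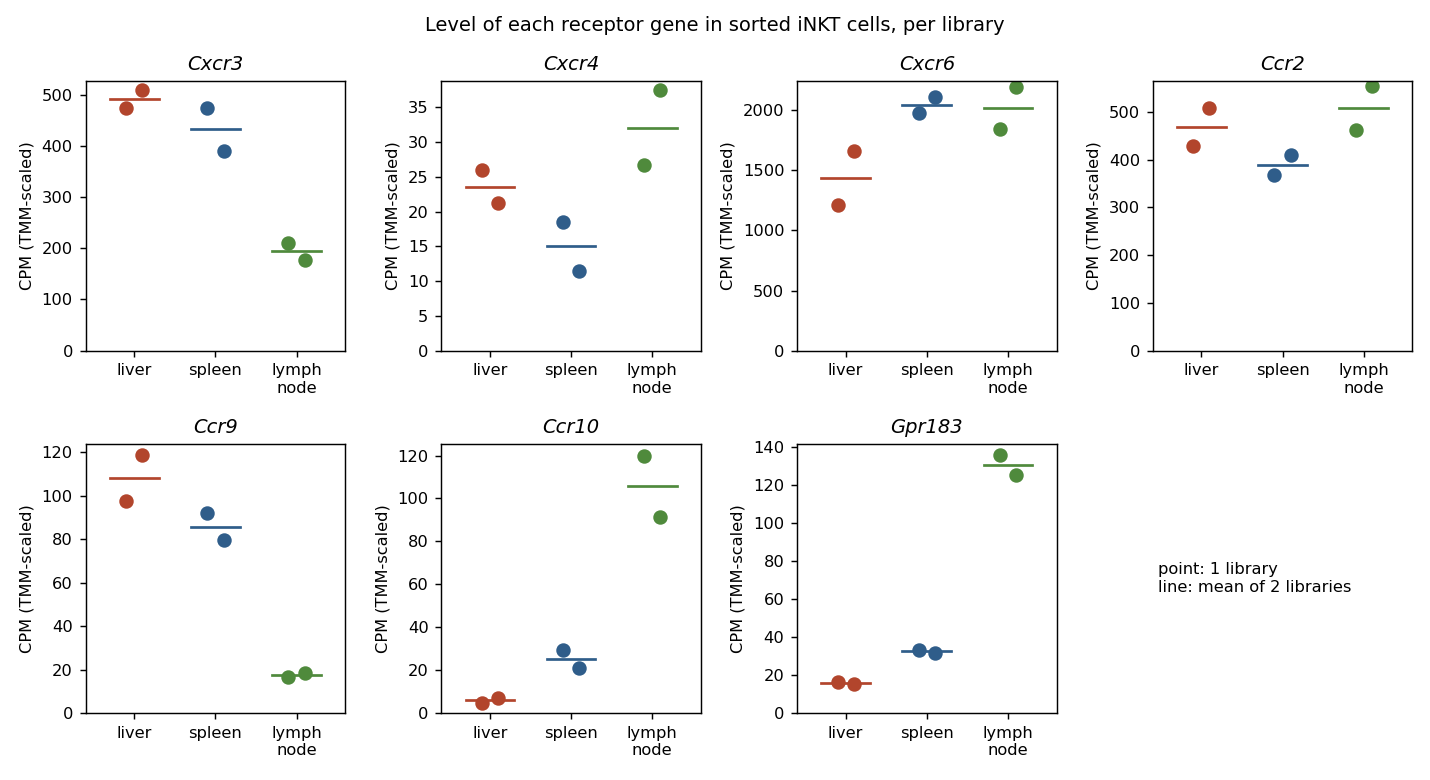
Level of each of the 7 receptor genes (y axis, TMM-scaled CPM) in liver, spleen and lymph node iNKT cells (x axis), with 1 point per library and a line at the mean of 2 libraries. Both lymph node libraries lie below all others for Cxcr3 (210 and 178) and Ccr9 (16.9 and 18.5), and above all others for Ccr10 (120 and 91.6) and Gpr183 (136 and 125).

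Cxcr3 stood at 475 and 510 CPM in liver, 474 and 389 in the spleen and 210 and 178 in lymph node. The organ means were 492 ± 24.9, 432 ± 60.2 and 194 ± 23.2 (SD, n = 2), with the upper spleen library just below the lower liver library and lymph node below both organs. Ccr9 stood at 97.7 and 119 in liver, 91.9 and 79.8 in the spleen and 16.9 and 18.5 in lymph node (means 108 ± 15.0, 85.9 ± 8.56 and 17.7 ± 1.13, SD, n = 2). Its order over the organs was that of Cxcr3, with no overlap between lymph node and the rest.

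Ccr10 stood at 4.95 and 7.14 in liver, 29.4 and 21.03 in the spleen and 120 and 91.6 in lymph node, from 37 and 44, 113 and 73, and 440 and 332 UMIs. No 2 organs overlapped, and the means were 6.04 ± 1.54, 25.2 ± 5.93 and 106 ± 19.9 (SD, n = 2). Gpr183 stood at 16.7 and 15.4 in liver, 33.3 and 31.7 in the spleen and 136 and 125 in lymph node, again with no overlap and with a smaller spread (means 16.1 ± 0.939, 32.5 ± 1.16 and 130.4 ± 7.30, SD, n = 2).

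Cxcr6 stood at 1213 and 1663 in liver, 1977 and 2112 in the spleen and 1843 and 2194 in lymph node (means 1438 ± 318, 2044 ± 95.8 and 2018 ± 248, SD, n = 2). Both liver libraries lay below the other 4, and the liver libraries differed from each other by more than spleen differed from lymph node. Ccr2 stood at 429 and 507 in liver, 368 and 409 in the spleen and 461 and 555 in lymph node (means 468 ± 55.3, 388 ± 29.3 and 508 ± 66.5, SD, n = 2), so that liver overlapped lymph node and spleen lay below both. Cxcr4 stood at 26.0 and 21.2 in liver, 18.5 and 11.5 in the spleen and 26.7 and 37.5 in lymph node, from 40 to 194 UMIs in a library. Its organ means were 23.6 ± 3.34, 15.0 ± 4.92 and 32.1 ± 7.66 (SD, n = 2). The single libraries did not overlap between organs, although the highest liver value and the lowest lymph node value nearly touched.

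Between liver and spleen, Ccr10, Gpr183 and Cxcr6 were lower and Cxcr4 was higher in liver. In the edgeR quasi-likelihood test with Benjamini-Hochberg adjustment over 10250 genes, 25.9% of all genes passed an adjusted p of 0.05 (12.8% higher and 13.1% lower in liver), against 4 of the 7 receptors, 1 higher and 3 lower. The largest difference was that of Ccr10 (-2.08 ± 0.23, adjusted p = 2.65e-07), followed by Gpr183 (-1.01 ± 0.16, adjusted p = 2.71e-05). Cxcr4 (0.65 ± 0.22, adjusted p = 0.0319) and Cxcr6 (-0.51 ± 0.14, adjusted p = 0.00744) also passed in edgeR. Both rested on single libraries: without liver library 1 or without spleen library 2, the adjusted p was 0.229 or 0.355 for Cxcr4 and 0.186 or 0.0684 for Cxcr6. Cxcr3 (0.19 ± 0.12, adjusted p = 0.254), Ccr2 (0.27, 95% interval 0.02 to 0.52, adjusted p = 0.103) and Ccr9 (0.33 ± 0.13, adjusted p = 0.0578) did not pass in edgeR, although Ccr9 did in 5 and Ccr2 in 3 of 14 alternatives (adjusted p down to 0.0254 and 0.0391), both of them without liver library 1.

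Between liver and lymph node the receptors split. Cxcr3 and Ccr9 were higher in liver, and Ccr10, Gpr183 and Cxcr6 were higher in lymph node. Over all genes 37.5% passed (18.0% higher and 19.6% lower in liver), against 5 of the 7 receptors, 2 higher and 3 lower. Ccr9 differed by 2.61 ± 0.16 (edgeR, adjusted p = 5.54e-15) and Cxcr3 by 1.34 ± 0.12 (adjusted p = 1.59e-10). In the other direction edgeR gave -4.14 ± 0.20 for Ccr10 (adjusted p = 1.20e-15) and -3.01 ± 0.15 for Gpr183 (adjusted p = 1.25e-17). Cxcr6 differed by -0.49 ± 0.14 (edgeR, adjusted p = 0.00583), which was 0.156 without liver library 1 and 0.14 without lymph node library 2. Cxcr4 (-0.44 ± 0.20, adjusted p = 0.0863) did not pass, although it did without lymph node library 1 (adjusted p = 0.0376) and with sums thinned to 1 total (0.0243), nor did Ccr2 (-0.12, 95% interval -0.37 to 0.13, edgeR adjusted p = 0.468).

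Between spleen and lymph node 6 of the 7 receptors passed, 2 higher and 4 lower in spleen, against 18.2% of all genes (7.89% higher and 10.3% lower). Cxcr3 (1.16 ± 0.13, adjusted p = 1.12e-08) and Ccr9 (2.28 ± 0.17, adjusted p = 9.23e-13) were higher in spleen in edgeR. Ccr10 (-2.06 ± 0.18, adjusted p = 6.30e-10), Gpr183 (-2.002 ± 0.14, adjusted p = 6.50e-13) and Cxcr4 (-1.08 ± 0.23, adjusted p = 0.000828) were lower in edgeR, as was Ccr2 (-0.39 ± 0.12, adjusted p = 0.0248). Ccr2 no longer passed in edgeR without spleen library 1 (adjusted p = 0.217) or lymph node library 2 (0.352), and Cxcr4 not without lymph node library 2 (0.0565). Cxcr6 differed by 0.02 (95% interval -0.26 to 0.30, edgeR adjusted p = 0.946). The 3 comparisons share libraries and are not independent of one another. Cxcr3, Ccr9, Ccr10 and Gpr183 passed in both comparisons with lymph node under all 14 alternative settings run.

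**Figure D2:**
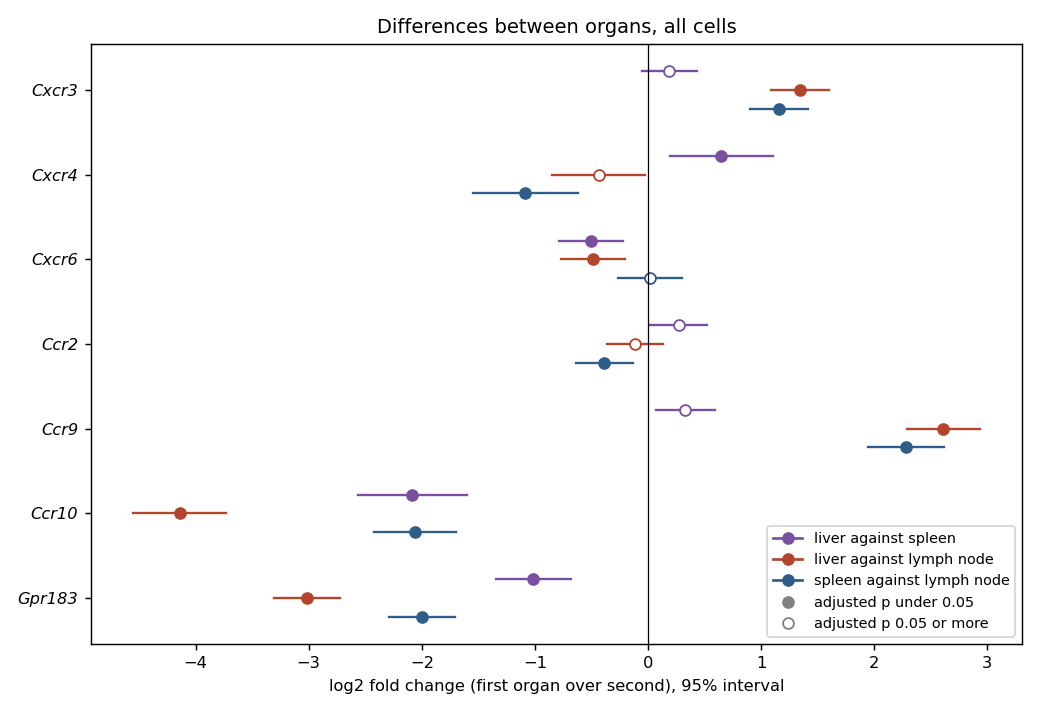
Log2 fold change of each receptor gene (x axis, first organ over the other) with its 95% interval, for the 3 comparisons over all cells. Filled points passed an adjusted p of 0.05; Ccr10 lies farthest from 0, at -4.14 between liver and lymph node, and Ccr9 farthest on the other side, at 2.61.

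The share of cells in which a receptor was detected gave the same order of organs for Cxcr3, Ccr9, Ccr10 and Gpr183. Liver cells held more UMIs, and the cause was not tested. Each cell was therefore thinned to 1000 UMIs and shallower cells were left out (1075 cells, 0 to 17.1% of a library). At least 1 UMI of Cxcr3 was found in 28.6% ± 0.736 of liver, 26.9% ± 3.22 of the spleen and 12.9% ± 0.936 of lymph node cells, and of Ccr9 in 6.35% ± 0.544, 5.65% ± 0.653 and 1.23% ± 0.244 (SD, n = 2). For Gpr183 the shares were 1.10% ± 0.136, 2.11% ± 0.137 and 8.96% ± 0.503, and for Ccr10 they were 0.264% ± 0.172, 0.921% ± 0.393 and 5.41% ± 0.278 (SD, n = 2). Cxcr6 was detected in most cells of each organ, at 60.6% ± 9.03 in liver, 69.2% ± 1.02 in the spleen and 69.2% ± 4.93 in lymph node. The liver spread came from its 2 libraries, at 54.2% (95% exact binomial interval 52.3% to 56.1%) and 67.0% (65.2% to 68.7%), which differed by more than counting error. Ccr2 was detected in 27.6% ± 3.13, 23.7% ± 1.02 and 30.4% ± 3.32, and Cxcr4 in 1.81% ± 0.123, 0.764% ± 0.341 and 2.64% ± 0.698 (SD, n = 2). The liver and lymph node libraries did not overlap for Cxcr3, Cxcr4, Ccr9, Ccr10 and Gpr183 at this depth. At 500 UMIs per cell those of Cxcr4 overlapped, and those of Cxcr6 overlapped at 1000 but not at 500 UMIs or in another random thinning. The share of all genes without overlap was not computed, so no result about the receptors is drawn from the lack of overlap. In the separate test of levels, 37.5% of all genes passed between these organs.

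Without thinning the shares were 62.5%, 42.1% and 20.2% for Cxcr3 and 60.3%, 37.1% and 41.8% for Ccr2 in liver, spleen and lymph node, 88.2%, 83.1% and 81.3% for Cxcr6, and 17.4%, 9.19% and 1.93% for Ccr9. They were 5.20%, 1.98% and 4.17% for Cxcr4, 0.546%, 1.81% and 8.47% for Ccr10 and 3.56%, 3.90% and 14.7% for Gpr183. For Ccr2 and Cxcr4 the unthinned order put liver first, and the thinned order put lymph node first, as the summed levels did. For Cxcr6 it also put liver first, whereas liver was lowest in the thinned shares and the summed levels. Background from free RNA could be read from only 10 cells carrying B cell markers, in which Cxcr3, Cxcr6 and Gpr183 were each detected in 1 cell and the other receptors in 0 (median depth 1822 UMIs against 2055 in the other cells), too few to set a background.

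UMIs of Ccr10 were gathered in fewer cells than those of Gpr183. In the lymph node libraries at 1000 UMIs per cell, 186 and 160 Ccr10 UMIs came from 133 and 123 cells, with up to 6 in a cell and at least 2 in 29 and 23 cells. By comparison, 239 and 229 Gpr183 UMIs came from 221 and 203 cells, with at least 2 in 15 and 25. In liver library 1, 8 of the 11 Ccr10 UMIs came from 1 cell.

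**Figure D3:**
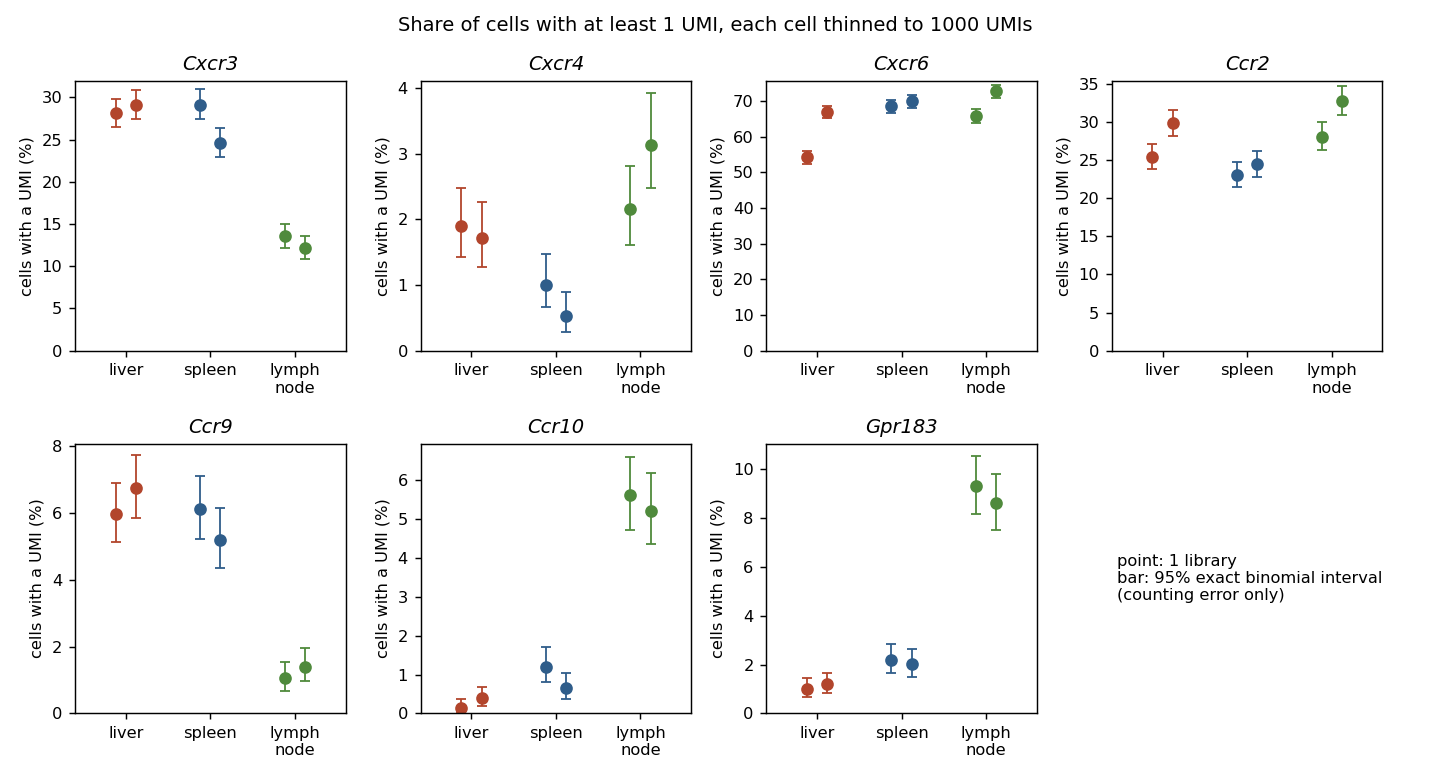
Share of cells with at least 1 UMI of each receptor (y axis, percent) in each library, after thinning each cell to 1000 UMIs. Points are libraries and bars are 95% exact binomial intervals, which cover counting error only; the lymph node libraries lie at 13.5% and 12.2% for Cxcr3, below the other 4, and at 9.31% and 8.60% for Gpr183, above them.

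The organs differ in the subsets they hold, and the receptors were next compared within cells that carried subset markers. A cell was called positive for a list when at least 2 of its genes were detected at 1000 UMIs per cell, and negative when none was. The iNKT1 list holds 8 genes such as Tbx21 and Klrd1 and the iNKT17 list holds 10 genes such as Tmem176a, Tmem176b, Il23r and Il17re. In the liver libraries Tmem176a gave 653 and 722 UMIs and Tmem176b 850 and 856 of the 1803 and 1878 UMIs of that list, while Il23r gave 4 and 6 and Il17re 22 and 16. In the lymph node libraries they gave 984 and 950, 863 and 845, 110 and 180, and 205 and 241 of 5019 and 5251. The list UMIs of liver and lymph node thus came from these genes in different shares, counted over all cells, and the part of this in the results was not tested. iNKT1-positive cells made up 38.1% and 41.7% of the liver libraries, 24.1% and 22.7% of spleen and 8.55% and 7.88% of lymph node (1067 and 1190, 622 and 564, and 203 and 186 cells). iNKT17-positive cells made up 22.6% and 28.5% in lymph node (537 and 672 cells) but 1.08% to 2.81% in liver and spleen (28 to 80 cells per library).

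Among iNKT1-positive cells, the level of Cxcr3 did not pass between any 2 organs, with 505 and 552 CPM in liver, 563 and 454 in the spleen and 473 and 380 in lymph node. The lymph node libraries overlapped spleen there, and the difference of liver over lymph node was 0.30 (95% interval -0.02 to 0.62, edgeR adjusted p = 0.242) where it had been 1.34 over all cells. With markers detected without thinning it was 0.46 and passed (adjusted p = 0.0247), in 1 of 13 alternatives. Spleen over lymph node gave 0.25 (edgeR, adjusted p = 0.556) and liver over spleen 0.05 (adjusted p = 0.848). Gpr183 remained higher in lymph node, with 16.7 and 16.8 in liver, 29.3 and 13.1 in the spleen (22 and 8 UMIs) and 106 and 108 in lymph node, and differences of -2.66 for liver against lymph node (edgeR, adjusted p = 1.38e-09) and -2.27 for spleen against lymph node (adjusted p = 4.79e-06). Spleen lay on both sides of liver there (-0.39 for liver over spleen, edgeR adjusted p = 0.491).

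In iNKT1-positive cells, 2 of the 7 receptors passed between liver and spleen (13.1% of 7283 genes did), 5 for liver against lymph node (10.5%) and 2 for spleen against lymph node (3.10%). Cxcr6 was lower in liver than in spleen (-0.72, edgeR adjusted p = 7.45e-05) and than in lymph node (-0.68, adjusted p = 0.000288), the latter not without liver library 1 (0.0553). Ccr9 was higher in liver than in spleen (0.70, edgeR adjusted p = 0.0180) and than in lymph node (2.16, adjusted p = 7.34e-05), where it rested on 2 and 6 lymph node UMIs. The former call was lost in 5 of 13 alternatives, with DESeq2, without either spleen library, with thinned sums and with at least 3 list genes (adjusted p up to 0.573), and the latter, which ran from 1.502 to 8.05, without lymph node library 1 (0.0675). Cxcr4 was lower in liver (-1.28, edgeR adjusted p = 0.0249) and in spleen (-2.30, adjusted p = 0.00174) than in lymph node, where 10 and 11 UMIs were counted. The former call was lost in 4 of 11 alternatives, with DESeq2 and without liver library 2 or either lymph node library (adjusted p up to 0.276), and the latter without lymph node library 2 (0.0698). Ccr10 was lower in liver than in lymph node (-3.29, edgeR adjusted p = 0.0352), with 11.03 and 0.838 CPM in the liver libraries from 29 and 2 UMIs and 32.2 and 92.5 in the lymph node libraries from 7 and 18. Over the alternatives the difference ran from -5.94 to -2.37, and it did not pass without lymph node library 2 (edgeR adjusted p = 0.220). Scaled to library size, Ccr10 met the count filter only through lymph node, where it is high, so no conclusion is drawn from its call.

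Among iNKT17-positive cells the Cxcr3 level differed strongly. It was 492 and 574 CPM in liver, 155 and 173 in the spleen and 76.9 and 45.4 in lymph node, with no overlap, from 48 and 78, 6 and 7, and 53 and 36 UMIs. Of the 5 receptors with enough counts to test, 1 passed between liver and spleen (4.26% of 3003 genes did), namely Cxcr3 (1.71, edgeR adjusted p = 0.000913). Between liver and lymph node 3 passed (22.1% of genes): Cxcr3 (3.15, edgeR adjusted p = 3.86e-29), Ccr10 (-2.16, adjusted p = 0.00257) and Gpr183 (-2.14, adjusted p = 3.08e-08). The Ccr10 value rested on 0 and 5 liver UMIs against 73 and 70 in lymph node, and ran from -8.01 to -1.40 over the alternatives. It did not pass with DESeq2 (adjusted p = 0.143), nor in edgeR without liver library 1 (0.144) or lymph node library 1 (0.0634). Only lymph node libraries reached the minimum count of 10 for Ccr10, with 4 UMIs in spleen in all. The gene was thus testable through the organ where it is high, and no conclusion is drawn from its call. The Cxcr3 value between liver and spleen did not pass in edgeR with thinned sums (0.0634). Between spleen and lymph node edgeR called 0 of 5 (1.60% of genes), although 3 had an unadjusted p below 0.05, and DESeq2 also called 0. Cxcr3 differed there by 1.44 (edgeR, adjusted p = 0.134). Of the liver iNKT17-positive cells, 14 of 46 (30.4%) and 27 of 80 (33.8%) were also iNKT1-positive, against 1 of 28 (3.57%) and 3 of 30 (10.0%) in spleen and 9 of 537 and 8 of 672 in lymph node, and the part of this overlap in the Cxcr3 level was not tested.

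Positive and negative cells of the same library were then compared, with the library as a block. Their levels were scaled over positive and negative sums together, so that those of positive cells differ from the values above, which were scaled over positive cells alone. For the iNKT1 list, 2 of 7 receptors passed, against 10.2% of 9678 genes. Cxcr6 was higher in positive cells (0.31 ± 0.05, edgeR adjusted p = 4.29e-06, higher in 6 of 6 libraries) and Ccr9 lower (-0.63 ± 0.10, adjusted p = 5.87e-06, lower in 5 of 6). The Ccr9 value ran from -0.978 to -0.395 over 13 alternatives and did not pass with DESeq2 (adjusted p = 0.0575). For the iNKT17 list 3 passed, against 12.1% of 9414 genes. Those 1136 genes became 454 without lymph node library 1 and 490 without lymph node library 2. Gpr183 was higher in iNKT17-positive cells (1.48, edgeR adjusted p = 3.29e-20, higher in 6 of 6 libraries), as was Ccr2 (0.51, adjusted p = 4.01e-05), and Ccr9 was lower (-1.41, adjusted p = 3.24e-06, lower in 6 of 6). Ccr2 was higher in the positive cells of the liver and lymph node libraries but lower in those of spleen (332 against 385 and 378 against 423), and without lymph node library 1 its edgeR adjusted p was 0.134. With unthinned detection Ccr2 (0.0720) and Ccr9 (0.236) did not pass. Gpr183 stood at 262 against 90.4 and 211 against 90.2 in the lymph node libraries, 111 against 30.9 and 144 against 31.5 in spleen, and 25.0 against 17.6 and 68.6 against 13.5 in liver. The iNKT17-negative cells therefore still kept the organ order of Gpr183.

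Cells positive for the iNKT2 list (Il4, Il13, Gata3, Zbtb16 and others) differed from negative cells in 2 of 7 receptors, against 0.729% of 9053 genes. That share was not stable, since the 66 genes that passed became 1425 of 9284 with unthinned detection. Without lymph node library 1 or 2 they became 35 or 32. Cxcr6 was lower (-0.28, edgeR adjusted p = 7.30e-07, lower in 6 of 6 libraries) and Ccr10 higher (0.76, adjusted p = 0.00843), with 231 against 109 and 120 against 78.8 CPM in lymph node, and in liver 0 against 7.0 and 4.2 against 8.1. The Ccr10 value ran from 0.52 to 1.70 over 13 alternatives and lost its call in 4 of them, with DESeq2 (adjusted p = 0.999), without spleen library 1 (0.0516) or lymph node library 1 (0.673) and with at least 3 list genes (0.0575). Cells positive for the list of recent thymic emigrant (RTE) genes, which holds Ccr7, S1pr1, Klf2 and others, also differed in 2 of 7, against 2.73% of 9202 genes. In these cells Cxcr6 (-0.89, edgeR adjusted p = 1.19e-27) and Cxcr3 (-0.47, adjusted p = 0.00147) were lower, each in 6 of 6 libraries. Over 13 alternatives Cxcr6 ran from -2.36 to -0.83 and Cxcr3 from -1.58 to -0.41. Cxcr3 did not pass with DESeq2 (adjusted p = 0.0947).

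The relation of Cxcr3 to both subset lists depended on the organ. Cxcr3 was higher in iNKT1-positive than in negative cells in 6 of 6 libraries, but the gap was 500 against 444 and 552 against 450 in liver, 566 against 409 and 461 against 339 in the spleen, and 468 against 164 and 374 against 140 in lymph node. In iNKT17-positive cells it was lower in 6 of 6, at 399 against 509 and 487 against 537 in liver, 111 against 507 and 126 against 413 in the spleen, and 68.2 against 288 and 40.6 against 261 in lymph node. Averaged over organs neither difference passed (0.54 ± 0.20 with an edgeR adjusted p of 0.217, and -1.36 with 0.159). A test of the difference of these effects between organs, added after the data were seen, called Cxcr3 for the iNKT1 list when liver (-1.24, edgeR adjusted p = 2.59e-16) or spleen (-1.01, adjusted p = 1.87e-09) was set against lymph node. For the iNKT17 list it called Cxcr3 when liver was set against spleen (1.73, edgeR adjusted p = 0.00106, but 0.149 without liver library 2 and 0.498 without spleen library 1) or against lymph node (2.12, adjusted p = 1.21e-19). For the iNKT1 list, 1, 3 and 2 of 7 receptors passed for liver against spleen, liver against lymph node and spleen against lymph node, where 1.20%, 2.14% and 0.909% of all genes did. For the iNKT17 list 2, 3 and 2 passed, where 0.882%, 1.37% and 0.552% of all genes did. In this test the spread for Cxcr3 was taken almost wholly from all genes together. Its small p-values therefore do not measure the spread between the libraries of an organ.

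**Figure D4:**
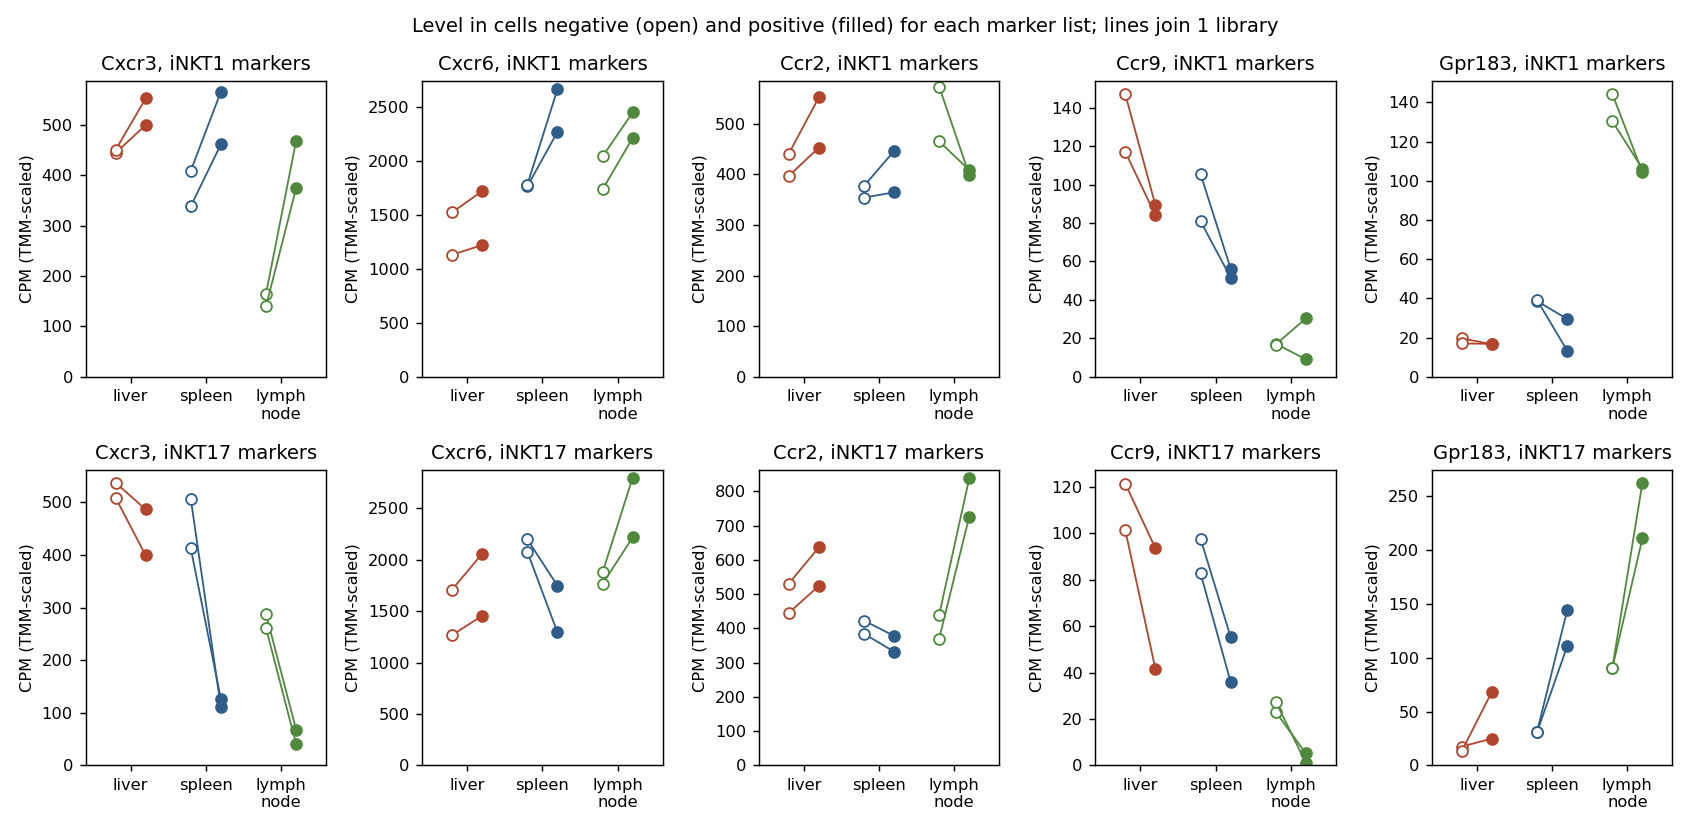
Level of 5 receptors (y axis, TMM-scaled CPM) in cells negative (open) and positive (filled) for the iNKT1 markers (top) or iNKT17 markers (bottom), by organ (x axis), with a line joining the pair of values of 1 library. For the iNKT1 markers, Cxcr3 rises in the lymph node libraries from 164 and 140 to 468 and 374, and 374 is the lowest value of positive cells in any library.

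Co-detection in single cells was described for the 13 of 21 receptor pairs with enough expected joint cells, again at 1000 UMIs per cell. The odds ratio compares how often a receptor was found in cells with and without the other, and cells of a library share its depth and free RNA, so that the values are given without a test. Of the 13 pairs, 3 had odds ratios above 1 and 1 below 1 in all 6 libraries, against 6 and 0 without thinning. Cxcr6 and Ccr2 were found together more often than separate detection would give, in 3063 cells against 2786 expected. Their odds ratios were 1.32 to 2.13 in the 6 libraries. Over the libraries Ccr2 was detected in 24.6% to 37.0% of Cxcr6-positive and 17.1% to 26.0% of Cxcr6-negative cells. Cxcr3 and Cxcr6 gave 1.08 to 1.57, although another random thinning gave 0.988 in 1 library, and Cxcr6 and Ccr9 gave 1.14 to 25.7. The highest of these came from lymph node library 2, where all 33 Ccr9-positive cells held Cxcr6. It came from 1 random thinning, and another gave 1.36 to 2.91 over the libraries.

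Cxcr6 and Ccr10 were found together less often than expected in each library, in 181 cells against 219 expected, with odds ratios of 0.202 to 0.694. In the lymph node libraries Ccr10 was detected in 4.68% and 4.66% of Cxcr6-positive cells and in 7.37% and 6.67% of Cxcr6-negative cells. Without thinning, 3 of the 6 odds ratios of this pair were above 1 (range 0.379 to 1.18), and at 500 UMIs per cell 2 were (0.345 to 1.90). Cxcr3 and Gpr183 gave odds ratios of 0.348 to 1.22, below 1 in 5 of 6 libraries, but in 3 of 6 at 500 UMIs per cell, and Ccr2 with Gpr183 gave 0.533 and 0.685 in liver and 1.19 to 1.26 in spleen and lymph node. The liver direction was not stable, since all 6 odds ratios of Ccr2 with Gpr183 were above 1 without thinning (1.39 to 1.71) and at 500 UMIs per cell (1.27 to 2.15, with enough expected joint cells in 2 libraries), and the cause was not tested. None of the 7 receptors was detected in 16.1% to 24.3% of the cells of a library at this depth, 1 in 40.6% to 44.1%, 2 in 26.4% to 33.8%, 3 in 6.57% to 9.43% and 4 in 0.442% to 0.842%, and 1 cell in lymph node library 1 held 5.

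**Figure D5:**
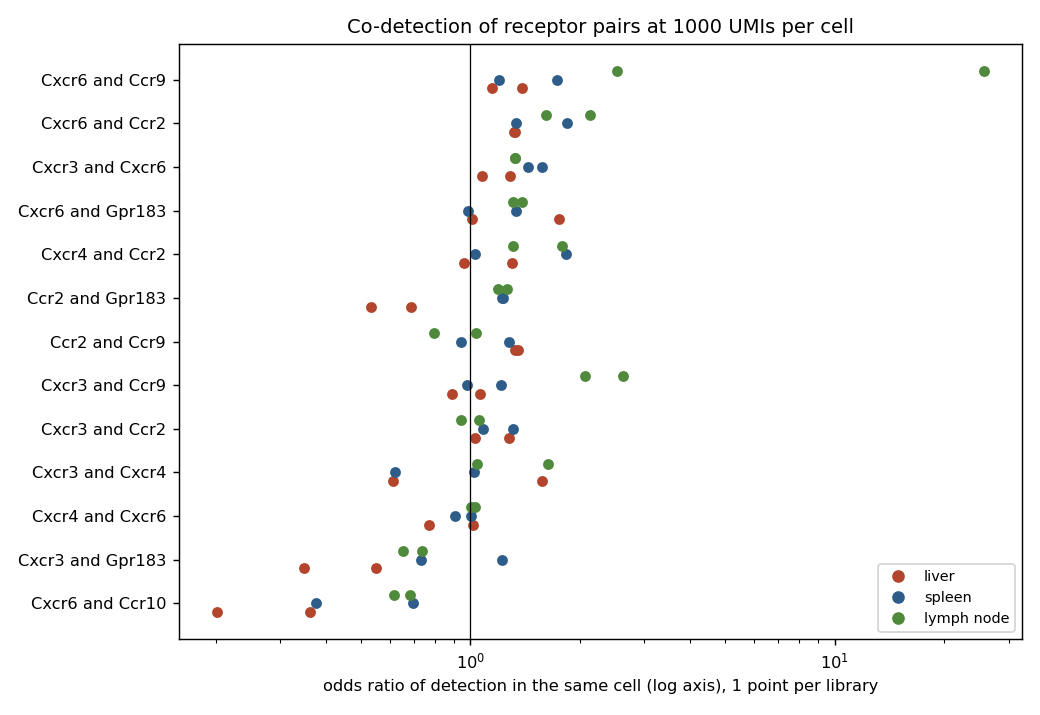
Odds ratio of detecting both receptors of a pair in the same cell (x axis, log scale) for the 13 pairs described (y axis), with 1 point per library coloured by organ. The points of Cxcr6 with Ccr2 all lie above 1 (1.32 to 2.13), and those of Cxcr6 with Ccr10 all lie below 1 (0.202 to 0.694).

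Other genes of the pathway are given beside the 25.9%, 37.5% and 18.2% of all genes that passed for liver against spleen, liver against lymph node and spleen against lymph node. Of 20 other chemoattractant receptors 8 had enough counts to test, and 4 passed for liver against spleen (1 higher, 3 lower in liver), 8 for liver against lymph node (2 higher, 6 lower) and 4 for spleen against lymph node (1 higher, 3 lower), with median differences of -0.17, -1.13 and -0.27 against 0.02, 0.01 and 0.00 over all genes. Ccr6, itself one of the iNKT17 markers, stood at 112 ± 10.1 CPM in lymph node (SD, n = 2) against 1.44 ± 0.428 in liver and 2.14 ± 1.39 in the spleen, with log2 differences of -6.23 for liver over lymph node and -5.66 for spleen over lymph node. Ccr7, which guides cells into lymph nodes, was lower in liver than in spleen (-1.68) and lymph node (-1.61), as was S1pr1, which mediates exit into blood and lymph (-1.08 and -0.97). Neither passed between spleen and lymph node (0.07 and 0.11). On chromosome 9, 7 of 10 cluster genes were tested and 2, 4 and 5 passed in the 3 comparisons, where 25.9%, 37.5% and 18.2% of all genes did. These counts include the receptors Cxcr6, Ccr2 and Ccr9 described above. Cxcr6 was among those called for liver against spleen, Cxcr6 and Ccr9 for liver against lymph node, and Ccr2 and Ccr9 for spleen against lymph node. Fyco1, which surrounds Cxcr6, gave -0.41, 0.31 and 0.72 where Cxcr6 gave -0.51, -0.49 and 0.02, and of the Fyco1 values the last passed.

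Of 14 ligands and enzymes that make oxysterol ligands, only Cxcl10, Ccl25 and Ccl27a had enough counts in these cells. Cxcl10, a ligand of CXCR3, stood at 55.2 ± 9.33 CPM in liver, 9.97 ± 3.42 in the spleen and 10.8 ± 0.0926 in lymph node (SD, n = 2) and was higher in liver than in both (2.48 and 2.34). Ccl25, the ligand of CCR9, was lower in liver than in spleen (-1.12) and lymph node (-0.64), and Ccl27a passed between liver and lymph node (-0.88). Between spleen and lymph node they differed by -0.13, 0.48 and -0.91 (edgeR, adjusted p = 0.798, 0.156 and 0.0725). Of 24 genes that carry or stop receptor signals 22 were tested, and 6 passed for liver against spleen, each of them higher in liver, 17 for liver against lymph node (8 higher, 9 lower) and 12 for spleen against lymph node (3 higher, 9 lower), again beside 25.9%, 37.5% and 18.2% of all genes. Gng2, a G protein gamma subunit, was higher in liver (1.62 over spleen and 0.80 over lymph node). Rgs2 (-1.98 and -2.10), which shortens G protein signalling, and Gnb1 (-1.19 and -1.03), a G protein beta subunit, were lower in liver and spleen than in lymph node.

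The genes whose levels over the 6 libraries were most like those of each receptor were found by Pearson correlation among 5911 genes of at least 20 CPM. Gfi1, a transcriptional repressor, came first for Cxcr3, Clcn4 for Cxcr4, Prmt1 for Cxcr6, AI314180 for Ccr2, Nkg7, a cytotoxic granule gene, for Ccr9, Ddit3 for Ccr10 and Ppm1k for Gpr183. The coefficients ran from 0.985 for AI314180 to 0.999 for Gfi1. With 6 libraries in 3 organs such values are common, since 150 genes reached 0.95 for Cxcr3, 155 for Ccr9, 205 for Ccr10 and 222 for Gpr183, against 21 for Cxcr4, 94 for Cxcr6 and 4 for Ccr2. Il17re, an iNKT17 marker, was among the nearest for Gpr183 (0.994).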

How the data were processed

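The libraries were of the 10x Genomics 3′ v2 kind, and the authors ran Cell Ranger 3.1.0 against mm10; the submitters' processing notes also name Seurat. The deposited matrices hold raw counts of UMIs per gene and barcode, with no normalization, and the deposited gene and barcode lists hold other values, namely names. The labels call the molecule nuclear RNA, a point that could not be checked. The annotation version is not given in the sources used here; gene positions were taken by identifier from GENCODE vM21 (GRCm38), which held 98.7% of the genes.

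Kept barcodes had at least 300 genes (2 failed), at most 4000 genes (10 failed) and at most 15% mitochondrial UMIs (45 failed), and 55 were dropped in all. No doublet caller was run; as an alternative the 2% of cells with the most UMIs (331 cells) were left out. 113 ribosomal, rRNA and haemoglobin genes (23.3% to 34.4% of UMIs) were left out. UMIs were summed per library, since cells are not replicates, and organs were compared in 1 fit of all 6 libraries with edgeR 4.0.16 under R 4.3.3 (TMM, filterByExpr at a minimum count of 10, robust quasi-likelihood F test, Benjamini-Hochberg adjustment, threshold 0.05). DESeq2 1.42.0 was an alternative. For marker lists, cells were thinned to 1000 UMIs, sums of under 10 cells were not used and list genes were left out of their own contrasts; positive and negative cells were compared with the library as a block. Shares carry exact Clopper-Pearson 95% intervals, which cover counting error only. The scripts were tested on simulated data. Other alternatives were median-ratio (RLE) scaling, no filter on low counts, sums thinned to 1 total, leaving out each library, other marker thresholds, unthinned marker detection, 500 UMIs per cell and another random seed.

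All 7 receptors were named; other genes were named from fixed lists of receptors, ligands, signal transducers and neighbours, and as the genes most correlated with each receptor. The receptors and lists were chosen with earlier results of these data known. Organ-specific marker effects were tested after the data had been seen. Some items are not reported here.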

Additional observations from a re-analysis of the deposited data

Results flagged for a closer look

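The difference between marker-positive and marker-negative cells of the same library was itself compared between organs, in a test added after the data had been seen. Values are differences of log2 effects from the edgeR quasi-likelihood test with Benjamini-Hochberg adjustment, and 13 of them passed.

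For the iNKT1 list, the effect on Cxcr3 was smaller in liver than in lymph node by 1.24 (difference -1.24, adjusted p = 2.59e-16) and smaller in spleen than in lymph node (-1.01, adjusted p = 1.87e-09). The effect within liver was 0.23, within spleen 0.46 and within lymph node 1.47, and both differences passed in all 11 alternatives. The effect on Ccr2 was 0.26 in liver and 0.14 in spleen against -0.35 in lymph node, and differed from lymph node by 0.61 (edgeR adjusted p = 6.73e-05) and 0.49 (adjusted p = 0.0321), which were lost in 4 and 8 of 11 alternatives (adjusted p up to 0.224 and 0.709), both without lymph node library 2. That on Cxcr6 was smaller in liver than in spleen (-0.33, edgeR adjusted p = 1.00e-05), which did not pass with DESeq2 (0.901), without liver library 1 (0.0769), without spleen library 2 (0.397), with unthinned detection (0.864) or with thinned sums (0.389). For Cxcr4 the difference of liver from lymph node was -1.41 (edgeR adjusted p = 0.0458), on 10 and 11 UMIs in the lymph node positive cells, and it was lost in 8 of 11 alternatives, without each of the 6 libraries among them (adjusted p up to 0.429).

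For the iNKT17 list, the effect on Cxcr3 within liver was -0.23, within spleen -1.95 and within lymph node -2.35. Liver differed from lymph node by 2.12 (edgeR adjusted p = 1.21e-19), which passed in all 11 alternatives, and from spleen by 1.73 (adjusted p = 0.00106), which did not pass without liver library 2 (0.149), without spleen library 1 (0.498) or with thinned sums (0.916). The effect on Ccr2 was larger in lymph node than in liver (-0.70, edgeR adjusted p = 5.52e-05) and than in spleen (-1.14, adjusted p = 0.000290); the first did not pass with DESeq2 (0.293) or thinned sums (0.0709), and the second was lost in 4 of 11 alternatives, with DESeq2, with median-ratio scaling (0.108) and without spleen library 1 (0.237) or 2 (0.0633). The effect on Cxcr6 was lower in spleen than in liver (0.73, edgeR adjusted p = 4.19e-05) and than in lymph node (-0.95, adjusted p = 2.51e-11), and the latter did not pass with DESeq2 (0.694), while the former was lost in 5 of 11 alternatives, without liver library 2 (0.167) or spleen library 1 (0.542) among them. For Ccr9 liver differed from lymph node by 2.38 (edgeR adjusted p = 0.0376), on 4 and 1 UMIs in the lymph node positive cells, and it was lost in 4 of 11 alternatives, without liver library 2 (0.899) or lymph node library 2 among them. Over all 13 differences and their alternatives no direction turned, and 44 of 142 alternative values no longer passed. The causes were not tested.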

How the results depend on the processing

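Counts stayed within 1.5 times their value in 138 of 178 comparisons with an alternative. Most of these were counts of receptors that passed. The others counted receptors whose liver and lymph node shares did not overlap, or pairs with all 6 odds ratios on 1 side of 1, and none of the others moved. The counts that moved are counts of receptors that passed. Over all cells, only the leave-one-out counts between liver and spleen moved (2 to 4, against 4). In iNKT1-positive cells, liver against spleen (2) gave 1 with DESeq2, 1 with thinned sums, 1 with at least 3 list genes and 4 with unthinned detection (1 to 4 with a library left out). Liver against lymph node (5) gave 3 with DESeq2 and 3 with thinned sums (3 to 5), and spleen against lymph node (2) gave 1 with thinned sums, 1 with at least 3 list genes and 4 with unthinned detection (1 to 3). In iNKT17-positive cells, liver against spleen (1) gave 0 with thinned sums and 3 with unthinned detection, and liver against lymph node (3) gave 5 without the count filter and 6 with unthinned detection (3 to 5 with a library left out). Spleen against lymph node (0) gave 2 without the filter, 1 with the replicate block, 1 with thinned sums, 1 with at least 3 list genes and 2 with unthinned detection (0 to 1). For marker-positive against negative cells, the iNKT1 count (2) became 4 with at least 3 list genes, and the iNKT17 count (3) 1 with unthinned detection (2 to 5 with a library left out). The iNKT2 count (2) became 1 with DESeq2, 1 with at least 3 list genes and 4 with unthinned detection (1 to 3), and the RTE count (2) 1 with DESeq2 and 4 with unthinned detection. Of 647 alternative log2 fold changes 585 kept direction and call, 37 lost and 18 gained the call, and 7 turned. Those that turned were all uncalled: Ccr2 between liver and lymph node (-0.24 to 0.025 over the libraries left out, above 0 without liver library 1 or lymph node library 2), Cxcr6 between spleen and lymph node (-0.10 to 0.14, below 0 without spleen library 2 or lymph node library 1), Cxcr3 between liver and spleen in iNKT1-positive cells (-0.10 to 0.195, below 0 without liver library 2 or spleen library 2) and Cxcr3 between spleen and lymph node in iNKT17-positive cells (-6.60 with at least 3 list genes, where spleen was 1 library of 10 cells, assumed to vary like the lymph node libraries). The cause was not tested.

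Between liver and spleen, Cxcr4 also lost its call with DESeq2 (adjusted p = 0.141) and thinned sums (0.125). Averaged over organs, Cxcr3 passed for the iNKT1 list with DESeq2 (0.00545) and at least 3 list genes (3.74e-07), and for the iNKT17 list with DESeq2 (0.0276), without liver library 2 (1.56e-06) and with thinned sums (5.58e-17). With at least 3 list genes, the iNKT17 and iNKT2 fits held only spleen library 1 and lymph node and the RTE fit no liver, since sums of under 10 cells were not used, and are no average over the organs (4.31e-29 for Cxcr3 and the iNKT17 list). With DESeq2, Ccr9 for the iNKT1 list (0.0575) and Cxcr3 for the RTE list (0.0947) did not pass. Over all genes DESeq2 called 1439, 2577 and 1137 in the 3 comparisons, against 2656, 3848 and 1869 with edgeR. For liver against spleen, edgeR called 1386 without liver library 1 and 1396 without spleen library 2. Without lymph node library 2 it called 2408 for liver against lymph node and 1017 for spleen against lymph node. Same-numbered libraries of different organs deviated together only weakly (r = 0.0679 to 0.0856 over genes), so that the numbers were not taken to pair them; the replicate block was 1 of the settings that added Ccr2 (0.0391) and Ccr9 (0.0399) between liver and spleen. Depth limits Cxcr3, Cxcr4, Ccr9, Ccr10 and Gpr183 in the marker-positive cells, where sums of 0 to 11 UMIs occurred.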
